A study of Mus musculus with 12 samples.

Results

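Amino acid transporters of the SLC (solute carrier) families SLC1, SLC3, SLC6, SLC7, SLC36, SLC38 and SLC43 were followed in hyperplastic mammary glands of MIC mice by RNA sequencing of total RNA. The members were all protein-coding genes of the expression table whose symbol is Slc1a, Slc3a, Slc6a, Slc7a, Slc36a, Slc38a or Slc43a followed only by a number, so that Slc6a20a, Slc6a20b and Slc7a6os are not included. This gave 61 of 54532 genes, with 7 in the Slc1a family, 2 in Slc3a, 19 in Slc6a, 15 in Slc7a, 4 in Slc36a, 11 in Slc38a and 3 in Slc43a. Values are FPKM, fragments scaled to gene length and to a total per library, which allows levels to be set side by side between genes.

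The study held 3 groups of 4 libraries from female FVB/N mice. Stat3 ko glands came from MIC mice labelled as Stat3 knockout. Stat3 is a transcription factor that cytokine receptors activate. Chi3l1 ko glands came from MIC mice that lack Chi3l1, a secreted chitinase-like protein, and WT glands came from MIC mice with neither knockout. All 3 groups, WT included, carry MIC, in which doxycycline turns on polyoma middle T, an oncogene, and with it Cre recombinase in mammary epithelial cells. All received doxycycline at 2 mg/ml in the drinking water, with 2 wk in the sample titles. In the published MIC model the doxycycline-dependent activator is driven by the MMTV promoter. The labels do not name the alleles of either knockout, give no ages, and do not say whether the 4 libraries of a group are separate animals, so p-values measure the spread between these libraries, which may in part be technical.

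Amino acids cross membranes on carriers that differ in what they move and in what drives them. SLC7 light chains are exchangers that reach the cell surface bound to a single-pass heavy chain from SLC3, and the best known pair, Slc7a5 with Slc3a2, trades intracellular glutamine for leucine and other large neutral amino acids. SLC1 and SLC38 carriers use the sodium gradient to bring in glutamate, alanine, serine, cysteine or glutamine, SLC6 carriers use sodium and chloride for taurine, creatine, glycine and neurotransmitters, and SLC36 carriers use protons. In the mammary gland such carriers feed milk protein synthesis in the lactating epithelium, and Slc7a5 and Slc1a5 are often raised in breast tumours.

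The libraries held 16217143 to 22607123 gene counts. Stat3 stood at 12.2 to 18.7 FPKM in Stat3 ko, 46.7 to 53.3 in Chi3l1 ko and 46.2 to 49.7 in WT, and Chi3l1, listed as Chil1, at 4.92 to 17.6 FPKM in Stat3 ko, 0 to 0.0323 in Chi3l1 ko and 107 to 212 in WT. Stat3 RNA was thus lower but not absent in Stat3 ko, and these values do not show which cells lost it. The luminal epithelial keratin Krt8 reached 300.1 to 796 FPKM in Stat3 ko, 541 to 743 in Chi3l1 ko and 577 to 934 in WT, so the labelled mammary epithelium was present in every library. A pair of libraries stood apart in adipocyte markers, while T cell, B cell and skeletal muscle markers, given below, were highest in Stat3 ko 2. In Stat3 ko 1 the summed level of 12 adipocyte markers was 10426 FPKM, against 1020.5 to 1551 in the other Stat3 ko libraries, and in Chi3l1 ko 2 it was 1353 FPKM, against 279 to 338 in the other Chi3l1 ko libraries. Mitochondrial genes took 4.79%, 3.37%, 1.88% and 1.15% of counts in Stat3 ko 1 to 4, 1.03% to 2.22% in Chi3l1 ko and 1.002% to 1.51% in WT.

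Of the 61 members, 28 had at least 1 FPKM in at least 4 of 12 libraries and were tested in 1 fit with all 13643 genes that passed this filter, and 22 reached 1 FPKM in every library. The other 33 were not tested. Per kilobase, the highest level over the 12 libraries was that of Slc7a5, followed by Slc3a2, Slc38a10, Slc1a5, Slc38a2, Slc6a6, Slc6a8, Slc36a2, Slc38a3 and Slc43a3, whose means ran from 56.3 to 10.3 FPKM. Changes are given on the log2(FPKM + 1) scale with limma's standard error, a scale that understates changes of low genes, and a gene is called where the p adjusted over all 13643 genes (Benjamini-Hochberg) is under 0.05.

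**Figure D1:**
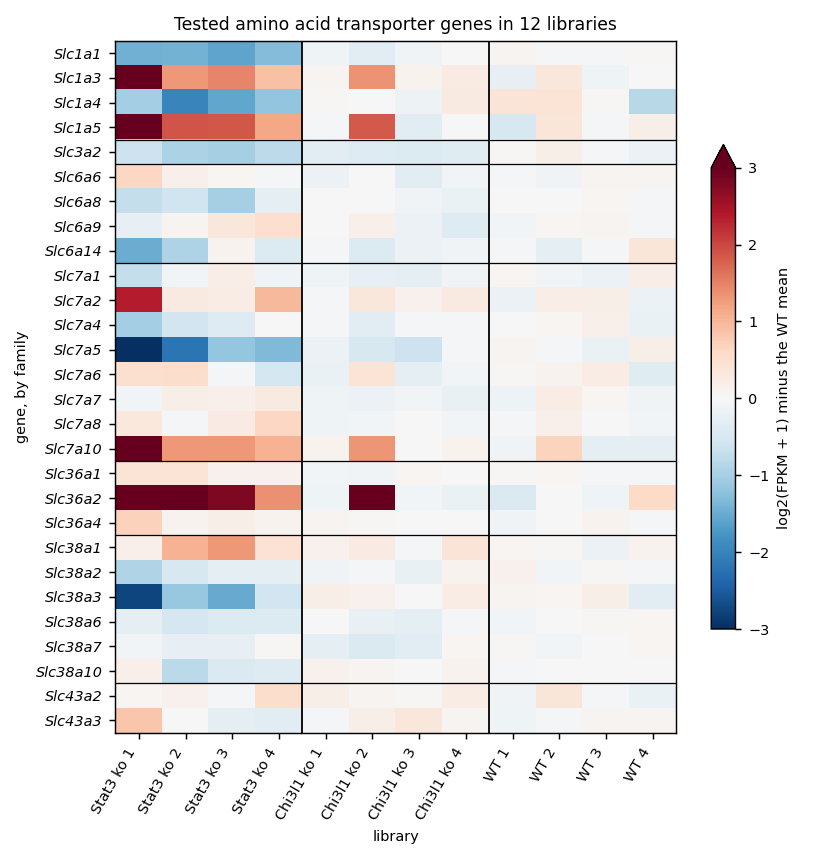
Level of the 28 tested transporter genes in each of the 12 libraries, as log2(FPKM + 1) minus the mean of the 4 WT libraries. Rows are genes grouped by family, columns are libraries, red is above and blue below the WT mean, and the scale stops at 3. Slc7a5, Slc1a1 and Slc1a4 are blue in all 4 Stat3 ko libraries, while Slc1a5, Slc36a2, Slc7a10 and Slc1a3 are at the red end of the scale in Stat3 ko 1 and also red in Chi3l1 ko 2.

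In Stat3 ko against WT, 12 of the 28 tested members were called, with 8 lower and 4 higher. Over all tested genes, 14% were called in this comparison, 8.39% lower and 5.61% higher. The genes that fell were the heavy chain Slc3a2 and its light chain Slc7a5, the sodium-driven carriers Slc1a1, Slc1a4, Slc38a2, Slc38a3 and Slc38a6, and the creatine transporter Slc6a8. The genes that rose were Slc1a3, Slc1a5, Slc36a2 and Slc38a1. The median change of the members was 0.08, beside −0.02 over all tested genes. The 4 Stat3 ko values lay wholly outside the 4 WT values for 15 of the 28 members, beside 21.3% of all tested genes. Among the 15 are Slc1a3 and Slc7a10, which met the filter through their 4 Stat3 ko libraries, with 1 library of each other group at 1 FPKM or more. Their place among the 28, and that of Slc1a3 among the 4 rises, thus depends on the group in which they are high. With edgeR on recovered counts, 7 members were higher and 8 lower, beside 9.7% and 7.59% of all genes (17.3% in either direction), and with DESeq2 7 were higher and 8 lower, beside 15.3% and 11.3% (26.6% in either direction). In tissue RNA, fewer cells of a type and less RNA per cell cannot be told apart.

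**Figure D2:**
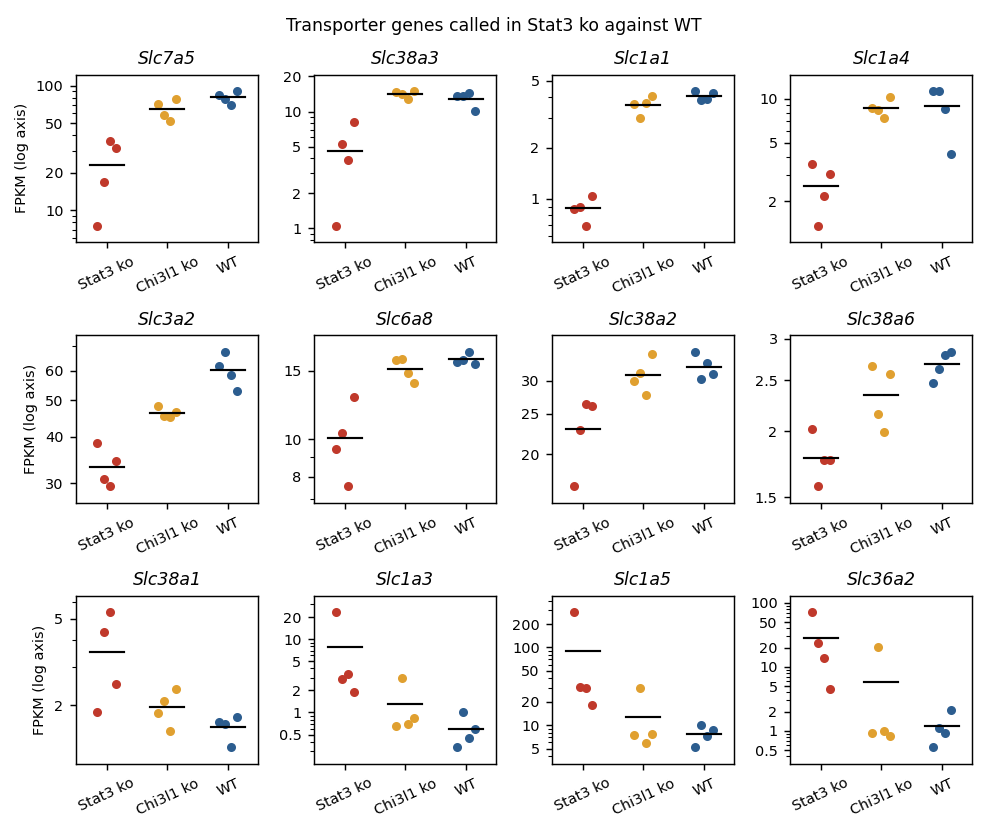
FPKM of the 12 members called in Stat3 ko against WT, on a log axis that differs between panels. Each point is a library, the line is the group mean, and groups run Stat3 ko, Chi3l1 ko, WT. In all 12 panels the 4 Stat3 ko points lie outside the 4 WT points, while the Chi3l1 ko points overlap the WT points in all panels but Slc3a2, with 1 high Chi3l1 ko point, library 2, in Slc1a3, Slc1a5 and Slc36a2.

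Slc7a5 and Slc3a2, the genes of 1 exchanger, had the highest RNA levels of all members in WT glands, and both fell in Stat3 ko. Slc7a5, the light chain that carries leucine and other large neutral amino acids (ENSMUSG00000040010, GRCm38 chromosome 8, 121881150 to 121907694, minus strand), was lowest in the library with the most adipocyte RNA. Slc7a5 stood at 7.52, 16.8, 35.8 and 31.5 FPKM in the Stat3 ko libraries, 71.9, 57.7, 52.4 and 77.7 in the Chi3l1 ko libraries, and 85.1, 78.2, 69.9 and 91.2 in the WT libraries. All 4 Stat3 ko values were below every other value, and they spread over a wider range than in either other group. The mean was 22.9 ± 13.1 FPKM in Stat3 ko, 64.9 ± 11.8 in Chi3l1 ko and 81.1 ± 9.16 in WT (SD, n = 4 each), so Stat3 ko held 28.2% of the WT level. Slc7a5 fell by 1.99 ± 0.38 in Stat3 ko against WT (SE, limma adjusted p = 0.0089), and the call held in all 23 alternatives, with an adjusted p of at most 0.0470. Without the mitochondria-rich libraries, those above 2% mitochondrial counts, which are Stat3 ko 1, Stat3 ko 2 and Chi3l1 ko 2, the change was −1.24, the smallest of these values, with a limma adjusted p of 0.0040.

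The heavy chain gene Slc3a2 (CD98; ENSMUSG00000010095, GRCm38 chromosome 19, 8706882 to 8723369, minus strand) stood at 38.4, 30.8, 29.4 and 34.5 FPKM in the Stat3 ko libraries, 48.3, 45.4, 45.2 and 46.5 in the Chi3l1 ko libraries, and 61.7, 67.6, 58.4 and 52.98 in the WT libraries. The 3 groups did not overlap, with Chi3l1 ko between the other two, and the order of libraries within Stat3 ko was not that of Slc7a5, since Stat3 ko 1 held the highest Slc3a2 value of its group. Stat3 ko held 55.3% of the WT mean. Slc3a2 fell by 0.84 ± 0.10 against WT (limma adjusted p = 0.00065), and this call too held in all 23 alternatives.

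Slc3a2 can pair with 6 light chain genes of the table, which are Slc7a5, Slc7a6, Slc7a7, Slc7a8, Slc7a10 and Slc7a11. Their summed level was 48.4 ± 8.44 FPKM in Stat3 ko, 78.4 ± 11.01 in Chi3l1 ko and 95.0 ± 7.89 in WT (SD, n = 4 each). Slc7a5 made up 47.7% ± 24.3 of this sum in Stat3 ko, 82.5% ± 4.15 in Chi3l1 ko and 85.2% ± 3.05 in WT. By library its share was 13.8%, 46.3%, 66.6% and 63.9% in Stat3 ko, against 77.5% to 86.3% in Chi3l1 ko and 82.3% to 88.7% in WT. The other light chains did not follow Slc7a5. Slc7a7, an exchanger of cationic for neutral amino acids, stood at 6.12 to 8.17 FPKM in Stat3 ko, 5.54 to 6.20 in Chi3l1 ko and 5.84 to 7.81 in WT. Slc7a6, of the same transport type, stood at 1.98 to 5.22 FPKM in Stat3 ko, 2.50 to 4.69 in Chi3l1 ko and 2.34 to 4.01 in WT. Slc7a8, a light chain with a range of neutral substrates, stood at 2.63 to 4.72 FPKM in Stat3 ko, 2.39 to 2.75 in Chi3l1 ko and 2.53 to 3.11 in WT, a change of 0.29 ± 0.12 in Stat3 ko against WT that did not pass (limma adjusted p = 0.129). The ranges of these 3 genes overlapped between all groups. Slc7a11, the cystine and glutamate exchanger, stayed under 1 FPKM in every library, between 0.108 and 0.608, and was not tested.

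**Figure D3:**
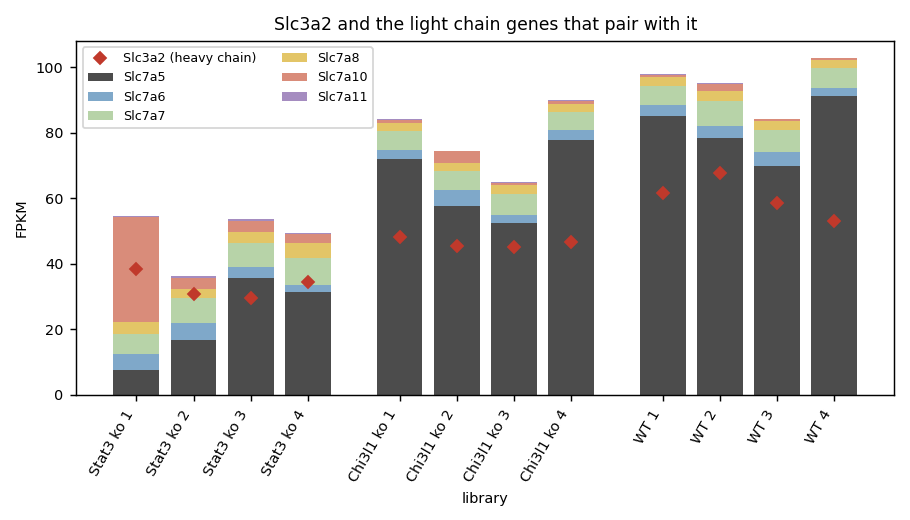
FPKM of the 6 light chain genes that pair with Slc3a2, stacked, and of Slc3a2 itself (diamonds), in each of the 12 libraries, with Stat3 ko left, Chi3l1 ko in the middle and WT right. Slc7a5 is the tallest segment in all libraries but Stat3 ko 1, where Slc7a10 is, and the Stat3 ko stacks reach 36.2 to 54.4 FPKM against 84.2 to 103 in WT.

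Slc7a10 is the light chain for small neutral amino acids such as serine and alanine, and its protein is known as a surface marker of white adipocytes. Slc7a10 stood at 32.1, 3.46, 3.45 and 2.76 FPKM in the Stat3 ko libraries, 0.953, 3.58, 0.807 and 0.955 in the Chi3l1 ko libraries, and 0.689, 1.88, 0.499 and 0.495 in the WT libraries. The 4 Stat3 ko values were above all 4 WT values, but Chi3l1 ko 2 was above 3 of them, and Stat3 ko 1 stood far above the rest. The change in Stat3 ko against WT was 1.95 ± 0.62 and did not pass (limma adjusted p = 0.0566). It passed without Stat3 ko 1, at 1.21 (limma adjusted p = 0.0395), and without Stat3 ko 4, at 2.26 (limma adjusted p = 0.0327). Slc7a10 met the filter through its 4 Stat3 ko libraries with only 1 library of each other group at 1 FPKM or more.

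The other heavy chain, Slc3a1, carries Slc7a9 in kidney and gut. Slc3a1 stood at 0.104, 0.168, 0.124 and 0.161 FPKM in the Stat3 ko libraries, 0.366, 0.0784, 0.239 and 0.121 in the Chi3l1 ko libraries, and 0.146, 0.136, 0.114 and 0.0453 in the WT libraries. The groups overlapped throughout at these low levels. Slc7a9 and Slc7a12 had 0 counts in every library, which allows at most 0.0673 FPKM of Slc7a9 and 0.103 FPKM of Slc7a12 in any 1 library (3 counts, counting error only).

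The SLC1 family split, with 2 carriers lower and 2 higher in Stat3 ko. Slc1a1 takes up glutamate, aspartate and cysteine (ENSMUSG00000024935, GRCm38 chromosome 19, 28835049 to 28913960, plus strand) and had the lowest adjusted p of all members. Slc1a1 stood at 0.875, 0.897, 0.695 and 1.05 FPKM in the Stat3 ko libraries, 3.62, 2.998, 3.68 and 4.08 in the Chi3l1 ko libraries, and 4.36, 3.83, 3.89 and 4.21 in the WT libraries. The Stat3 ko libraries lay close together and under every other library. They rested on 90, 100, 90 and 122 counts, against 409 to 556 in Chi3l1 ko and 456 to 529 in WT. Stat3 ko held 21.6% of the WT mean, and Slc1a1 fell by 1.44 ± 0.10 (limma adjusted p = 2.6e-05), a call that held in all 22 alternatives in which the gene was tested.

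Slc1a4 exchanges alanine, serine, cysteine and threonine (ENSMUSG00000020142, GRCm38 chromosome 11, 20302180 to 20332713, minus strand). Slc1a4 stood at 3.59, 1.37, 2.18 and 3.09 FPKM in the Stat3 ko libraries, 8.57, 8.31, 7.36 and 10.2 in the Chi3l1 ko libraries, and 11.3, 11.3, 8.55 and 4.21 in the WT libraries. WT 4 was the lowest library outside Stat3 ko and still above all Stat3 ko values. Slc1a4 fell by 1.43 ± 0.28 in Stat3 ko (limma adjusted p = 0.0100), to 28.97% of the WT mean, and the call was lost only in the fit of the compared groups alone, at an adjusted p of 0.0506.

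Promoters were looked up for the 4 called members with the lowest limma p in any comparison, which were Slc1a1, Slc3a2, Slc1a4 and Slc7a5, and are shown for the 3 with an entry in the RefSeq table (GRCm38.p6), so that the sequence before genes that fell can be read. Each is the 250 bases before the RefSeq start, 5′ to 3′ on the gene's strand, at chr19:28834885-28835134 (plus strand, Slc1a1), chr19:8713898-8714147 (minus strand, Slc3a2, whose RefSeq start lies inside the interval given above) and chr11:20332714-20332963 (minus strand, Slc1a4), and capitals mark the matches to the searched motifs.
Slc1a1: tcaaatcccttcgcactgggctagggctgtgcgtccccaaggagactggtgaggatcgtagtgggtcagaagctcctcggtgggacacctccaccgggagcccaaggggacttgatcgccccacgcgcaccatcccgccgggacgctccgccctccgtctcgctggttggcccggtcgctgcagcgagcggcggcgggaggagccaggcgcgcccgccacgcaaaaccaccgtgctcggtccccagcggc
Slc3a2: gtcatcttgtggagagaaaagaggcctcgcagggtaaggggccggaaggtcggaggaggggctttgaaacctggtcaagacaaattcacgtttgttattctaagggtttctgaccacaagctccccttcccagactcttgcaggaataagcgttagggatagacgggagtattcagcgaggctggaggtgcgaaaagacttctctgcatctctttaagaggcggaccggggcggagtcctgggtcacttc
Slc1a4: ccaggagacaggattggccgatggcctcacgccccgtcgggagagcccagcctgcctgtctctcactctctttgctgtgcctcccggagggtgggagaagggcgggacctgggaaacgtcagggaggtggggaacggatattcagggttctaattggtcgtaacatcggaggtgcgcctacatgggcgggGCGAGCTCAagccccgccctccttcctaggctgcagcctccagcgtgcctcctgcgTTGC
GC made up 70.4% of the Slc1a1, 53.6% of the Slc3a2 and 64.8% of the Slc1a4 window. A set of 4 motifs were searched on both strands of the 300 bases from 250 before to 50 after each start, and matches to different motifs may overlap. They were TTCNNNGAA (STAT type), TGATGNAA (core of the amino acid response element), TGANNNNGC (core of the antioxidant response element) and CACGTG (E-box). No match lay in the Slc1a1 or Slc3a2 window. In Slc1a4, TGANNNNGC matched on the minus strand from 60 to 52 bases before the start. TGATGNAA matched there on the minus strand from 4 bases before to 4 bases after it, within ctcctgcgTTGCATCAtctccagc, of which the last 4 capitals run past the printed window. Among all 32851 promoters of this length, 8.30% held the STAT-type motif, 3.97% the amino acid response core, 41.3% the antioxidant response core and 7.15% the E-box. Among the 64 promoters of the 43 members with an entry, these motifs were found in 4, 5, 36 and 9 promoters. The STAT-type motif was found in Slc1a3, Slc7a1, Slc7a11 and Slc38a9, of which only Slc1a3 was called, as a rise. The called members Slc7a5, Slc6a8, Slc38a3, Slc1a5, Slc36a2 and Slc38a1 had no entry, so their promoters were not searched.

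Slc1a5, which exchanges glutamine and other neutral amino acids (ENSMUSG00000001918, GRCm38 chromosome 7, 16781340 to 16798274, plus strand), went the other way from Slc1a4. Slc1a5 stood at 282, 30.7, 30.4 and 18.3 FPKM in the Stat3 ko libraries, 7.37, 29.7, 5.86 and 7.61 in the Chi3l1 ko libraries, and 5.18, 9.97, 7.21 and 8.74 in the WT libraries. Stat3 ko 1 stood far above all other libraries at 282 FPKM, and Chi3l1 ko 2 stood with the remaining Stat3 ko libraries. Slc1a5 rose by 2.49 ± 0.74 in Stat3 ko against WT (limma adjusted p = 0.0472). Without Stat3 ko 1 the change was 1.64 (limma adjusted p = 0.0408), and the call was lost on leaving out Stat3 ko 2, Chi3l1 ko 1, 3 or 4, or any 1 WT library, with an adjusted p of up to 0.126.

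Slc1a3, a glutamate and aspartate carrier best known from astrocytes, stood at 23.2, 2.85, 3.37 and 1.90 FPKM in the Stat3 ko libraries, 0.655, 2.98, 0.699 and 0.853 in the Chi3l1 ko libraries, and 0.334, 1.01, 0.444 and 0.588 in the WT libraries. It had the same pattern, with Stat3 ko 1 highest and Chi3l1 ko 2 among the other Stat3 ko values. Slc1a3 rose by 1.90 ± 0.57 (limma adjusted p = 0.0471), was 1.22 without Stat3 ko 1 (limma adjusted p = 0.0279), and lost its call without Stat3 ko 2, Chi3l1 ko 1, 3 or 4, or any 1 WT library, at up to 0.121. It met the filter with 4 Stat3 ko libraries and 1 of each other group at 1 FPKM or more. The 3 other glutamate carriers were not tested. Slc1a2 stood between 0.0320 and 0.379 FPKM, and Slc1a6 and Slc1a7 had at most 1 and 10 counts in a library.

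Of the SLC38 carriers, 3 fell and 1 rose in Stat3 ko. Slc38a2, a sodium-coupled carrier of glutamine, alanine and other small neutral amino acids that is induced when amino acids are scarce, stood at 16.7, 22.8, 26.3 and 26.2 FPKM in the Stat3 ko libraries, 29.9, 31.3, 27.8 and 34.9 in the Chi3l1 ko libraries, and 35.3, 30.3, 33.1 and 31.2 in the WT libraries. Its Stat3 ko values were all below the other groups, by a small margin. Slc38a2 fell by 0.50 ± 0.13 (limma adjusted p = 0.0343). The call was lost on leaving out Stat3 ko 2, Chi3l1 ko 1 or any 1 WT library (adjusted p up to 0.104), and without the 3 mitochondria-rich libraries the change was −0.29 (limma adjusted p = 0.108).

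Slc38a3, which moves glutamine, histidine and asparagine in either direction, stood at 1.06, 5.26, 3.87 and 8.19 FPKM in the Stat3 ko libraries, 14.7, 13.997, 12.9 and 15.1 in the Chi3l1 ko libraries, and 13.6, 13.5, 14.5 and 10.002 in the WT libraries. Stat3 ko 1 was lowest and Stat3 ko 4 highest within Stat3 ko, and all 4 lay under every other library. Slc38a3 fell by 1.49 ± 0.35 (limma adjusted p = 0.0214), to 35.6% of the WT mean. It lost its call without WT 1 or WT 3 (adjusted p up to 0.0657), and its change was −1.08 without Stat3 ko 1 (limma adjusted p = 0.0079).

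Slc38a6, a less studied member, stood at 2.02, 1.57, 1.76 and 1.77 FPKM in the Stat3 ko libraries, 2.66, 2.16, 1.997 and 2.57 in the Chi3l1 ko libraries, and 2.47, 2.63, 2.79 and 2.83 in the WT libraries. It fell by 0.40 ± 0.10 in Stat3 ko against WT (limma adjusted p = 0.0215), with no overlap with WT but with an overlap with Chi3l1 ko, and lost its call without WT 1, WT 3 or WT 4 (adjusted p up to 0.0632). Slc38a1, another glutamine carrier of the same transport type as Slc38a2, stood at 1.86, 4.36, 5.34 and 2.51 FPKM in the Stat3 ko libraries, 1.84, 2.09, 1.53 and 2.38 in the Chi3l1 ko libraries, and 1.68, 1.64, 1.28 and 1.78 in the WT libraries. Here Stat3 ko 1 was the lowest Stat3 ko library and Stat3 ko 2 and 3 the highest of all 12. Slc38a1 rose by 0.73 ± 0.22 (limma adjusted p = 0.0493). Leaving out any 1 library other than Stat3 ko 1 or Stat3 ko 4 ended this call (adjusted p up to 0.118).

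Slc38a10, the highest SLC38 member, stood at 48.3, 24.1, 31.4 and 32.6 FPKM in the Stat3 ko libraries, 46.9, 45.6, 43.7 and 46.5 in the Chi3l1 ko libraries, and 42.1, 43.5, 42.9 and 43.6 in the WT libraries. Stat3 ko 1 was the highest library of all and the other Stat3 ko libraries were the lowest of all. The change in Stat3 ko against WT was −0.37 ± 0.16 and did not pass (limma adjusted p = 0.126), while without Stat3 ko 1 it was −0.55 and passed (limma adjusted p = 0.0074). Slc38a7, a lysosomal exporter of glutamine and asparagine, overlapped between groups at 6.91 to 8.51 FPKM in Stat3 ko, 5.87 to 8.68 in Chi3l1 ko and 7.78 to 8.74 in WT. Slc38a9, the lysosomal arginine sensor upstream of mTORC1, lay between 0.655 and 1.25 FPKM and was not tested. Nor were Slc38a4, between 0.00944 and 2.001 FPKM, or Slc38a5, Slc38a8 and Slc38a11, with maxima of 0.0598, 0.111 and 0.0833 FPKM.

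In the SLC6 family, 4 of 19 members were expressed highly enough to test and 1 was called. Slc6a8, the creatine transporter, stood at 9.44, 10.3, 7.55 and 12.8 FPKM in the Stat3 ko libraries, 15.96, 16.1, 14.8 and 13.9 in the Chi3l1 ko libraries, and 15.8, 15.96, 16.8 and 15.6 in the WT libraries. The Stat3 ko libraries were all below the other 8, which lay close together. Slc6a8 fell by 0.65 ± 0.12 (limma adjusted p = 0.0094), to 62.5% of the WT mean, and the call held in all 23 alternatives.

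The taurine transporter Slc6a6 stood at 21.8, 15.4, 14.4 and 13.4 FPKM in the Stat3 ko libraries, 12.02, 13.7, 10.8 and 12.9 in the Chi3l1 ko libraries, and 13.2, 12.7, 14.7 and 14.6 in the WT libraries. The groups overlapped, with Stat3 ko 1 highest, and the change of 0.20 ± 0.13 in Stat3 ko did not pass (limma adjusted p = 0.307). Slc6a14, a carrier of neutral and cationic amino acids, stood at 0.437, 1.11, 3.30 and 2.03 FPKM in Stat3 ko, 2.04 to 2.86 in Chi3l1 ko and 2.27 to 4.12 in WT, a change of −0.68 ± 0.28 against WT that did not pass (limma adjusted p = 0.118) and was −0.15 without the 3 mitochondria-rich libraries. The glycine transporter Slc6a9 lay between 0.610 and 1.97 FPKM with overlapping groups. The untested members of the family are mostly neurotransmitter, proline and kidney or gut carriers. Slc6a4 and Slc6a13 reached 1.09 and 3.16 FPKM in Stat3 ko 1 and did not reach 1 FPKM elsewhere. Slc6a2, Slc6a3, Slc6a5, Slc6a7, Slc6a11, Slc6a12, Slc6a15, Slc6a16, Slc6a17, Slc6a18, Slc6a19 and Slc6a21 never exceeded 0.377 FPKM.

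None of the cationic SLC7 carriers was called in Stat3 ko against WT, which for the tested ones were Slc7a1, Slc7a2 and the related Slc7a4. Slc7a1 overlapped between groups at 2.45 to 5.52 FPKM in Stat3 ko, 3.61 to 4.30 in Chi3l1 ko and 4.02 to 5.48 in WT. Slc7a2, which supplies arginine in macrophages and muscle, stood at 13.96, 2.53, 2.41 and 4.73 FPKM in the Stat3 ko libraries, 1.85, 2.72, 2.18 and 2.50 in the Chi3l1 ko libraries, and 1.57, 2.35, 2.29 and 1.57 in the WT libraries. Stat3 ko 1 was far above the rest, and all Stat3 ko values exceeded all WT values, the lowest of them by little. Its change was 0.96 ± 0.38 and did not pass (limma adjusted p = 0.107). Slc7a4 stood at 1.34, 2.23, 2.65 and 3.75 FPKM in Stat3 ko, 2.76 to 3.67 in Chi3l1 ko and 3.15 to 4.29 in WT, a change of −0.50 ± 0.18 against WT (limma adjusted p = 0.0853). Slc7a3 stayed between 0.0956 and 0.429 FPKM, and Slc7a13, Slc7a14 and Slc7a15 had maxima of 0.448, 0.0145 and 0.0750 FPKM.

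The proton-coupled SLC36 carriers gave the largest rise. Slc36a2 carries glycine, alanine and proline (ENSMUSG00000020264, GRCm38 chromosome 11, 55158470 to 55185077, minus strand), and its protein is known as a surface marker of brown and beige adipocytes. Slc36a2 stood at 71.1, 23.9, 13.8 and 4.44 FPKM in the Stat3 ko libraries, 0.914, 20.4, 1.001 and 0.843 in the Chi3l1 ko libraries, and 0.550, 1.10, 0.922 and 2.12 in the WT libraries. Stat3 ko 1 was highest and Stat3 ko 4 lowest within Stat3 ko, and Chi3l1 ko 2 stood within the Stat3 ko range while the other Chi3l1 ko libraries stood with WT. Slc36a2 rose by 3.21 ± 0.87 (limma adjusted p = 0.0344), and its mean was 24.1 times that of WT, or 11.98 times without Stat3 ko 1. Without that library the change was 2.58 and did not pass (limma adjusted p = 0.0651), and the call was also lost without Stat3 ko 2 or any 1 WT library (adjusted p up to 0.0971). It met the filter with 4 Stat3 ko libraries and 2 of each other group.

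Slc36a1, a lysosomal exporter of small amino acids, stood at 7.15, 7.18, 5.75 and 5.69 FPKM in the Stat3 ko libraries, 4.83, 4.72, 5.40 and 5.11 in the Chi3l1 ko libraries, and 5.26, 5.37, 5.01 and 4.91 in the WT libraries. The Stat3 ko values were all above the other 8, by a small margin. Its change was 0.27 ± 0.09 in Stat3 ko against WT, just outside the threshold (limma adjusted p = 0.0595), and 0.13 without the 3 mitochondria-rich libraries. Slc36a4 stood at 2.75 to 4.68 FPKM in Stat3 ko, with Stat3 ko 1 highest, 2.49 to 2.69 in Chi3l1 ko and 2.28 to 2.77 in WT, and was not called. Slc36a3 had at most 7 counts in a library.

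The SLC43 carriers of branched-chain and aromatic amino acids, and their relative Slc43a3, were not called. Slc43a3, which is known to carry purine bases, stood at 17.9, 9.64, 7.67 and 7.48 FPKM in the Stat3 ko libraries, 9.23, 11.1, 12.4 and 10.2 in the Chi3l1 ko libraries, and 8.66, 9.35, 10.3 and 10.2 in the WT libraries. Stat3 ko 1 was the highest library and the other 3 Stat3 ko libraries lay within or under the WT range. Slc43a2 overlapped between groups at 7.15 to 10.97 FPKM in Stat3 ko, 7.55 to 8.80 in Chi3l1 ko and 6.29 to 9.67 in WT. Slc43a1 stood at 5.13, 1.91, 0.908 and 1.30 FPKM in the Stat3 ko libraries, 0.260, 0.910, 0.316 and 0.431 in the Chi3l1 ko libraries, and 0.147, 0.602, 0.396 and 0.238 in the WT libraries. It reached 1 FPKM in 3 Stat3 ko libraries and no other, so it was not tested, although its Stat3 ko values were all above WT. In the authors' deposited table Slc43a1 has a log2 fold change of 2.74 and an adjusted p of 0.00029.

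**Figure D4:**
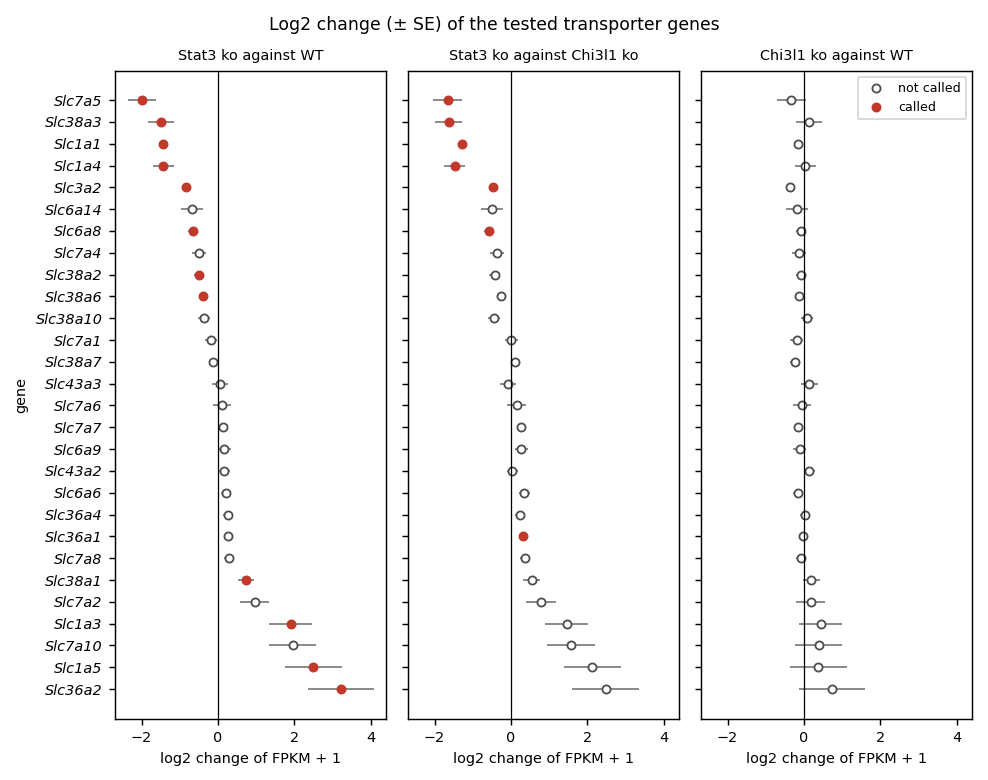
Log2 change of FPKM + 1 with its standard error for the 28 tested members in Stat3 ko against WT (left), Stat3 ko against Chi3l1 ko (middle) and Chi3l1 ko against WT (right), in the order of the left panel. Filled red points passed a limma adjusted p of 0.05. There are 12 filled points on the left, 7 in the middle and 0 on the right, and the rises with the widest bars are Slc36a2, Slc1a5, Slc7a10 and Slc1a3.

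Slc1a5, Slc36a2, Slc7a10 and Slc1a3 were high in the libraries in which adipocyte markers were high. The summed level of 12 adipocyte markers was 10426, 1551, 1325 and 1020.5 FPKM in the Stat3 ko libraries, 296, 1353, 279 and 338 in the Chi3l1 ko libraries and 182, 583, 289 and 353 in the WT libraries. Of these markers 6 were called higher in Stat3 ko and 0 lower, and none was at 0 in every library. Adipoq, the adipocyte hormone adiponectin, stood at 1001, 94.6, 72.8 and 58.1 FPKM in Stat3 ko, 15.8, 118, 12.3 and 16.8 in Chi3l1 ko and 6.52, 33.5, 15.4 and 21.6 in WT. Ucp1, the heat-producing uncoupling protein of brown and beige fat, stood at 176, 357, 74.3 and 0.194 FPKM in the Stat3 ko libraries, 0.369, 97.7, 0.0306 and 0.274 in the Chi3l1 ko libraries, and 0.103, 0, 0.193 and 2.30 in the WT libraries. Ucp1 was thus high in Stat3 ko 1 to 3 and Chi3l1 ko 2, the libraries that also had the most Slc36a2, and low in Stat3 ko 4. Per 1000 FPKM of summed adipocyte markers, a ratio chosen after the values were seen, Slc1a5 stood at 17.9 to 27.1 in Stat3 ko, 21.04 to 24.9 in Chi3l1 ko and 17.1 to 28.4 in WT. Slc7a10 stood at 2.23 to 3.07 in Stat3 ko, 2.65 to 3.22 in Chi3l1 ko and 1.40 to 3.78 in WT and Slc36a2 at 4.35 to 15.4 in Stat3 ko, 2.49 to 15.1 in Chi3l1 ko and 1.89 to 6.01 in WT on the same scale. These ranges overlapped between Stat3 ko and WT, and of the 4 risers and Slc7a10 only Slc1a3, at 1.84 to 2.54 in Stat3 ko, 2.20 to 2.52 in Chi3l1 ko and 1.54 to 1.83 in WT, did not. Stat3 ko 1 and Chi3l1 ko 2 were left out together in an alternative added after the data were seen. Slc1a5 was then at 1.64, Slc36a2 at 2.58, Slc1a3 at 1.22 and Slc38a1 at 0.93 (limma adjusted p = 0.0033, 0.0078, 0.0049 and 0.0159). These changes are the same as without Stat3 ko 1 alone, where the limma adjusted p was 0.0408, 0.0651, 0.0279 and 0.0126. Chi3l1 ko 2 belongs to neither group compared and enters only through the spread shared by the 3 groups. The lower p for Slc1a5, Slc36a2 and Slc1a3 thus came with leaving out a library of the third group, and is no separate support for these rises. The 3 Stat3 ko libraries that remain still held 1020.5 to 1551 FPKM of adipocyte markers.

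**Figure D5:**
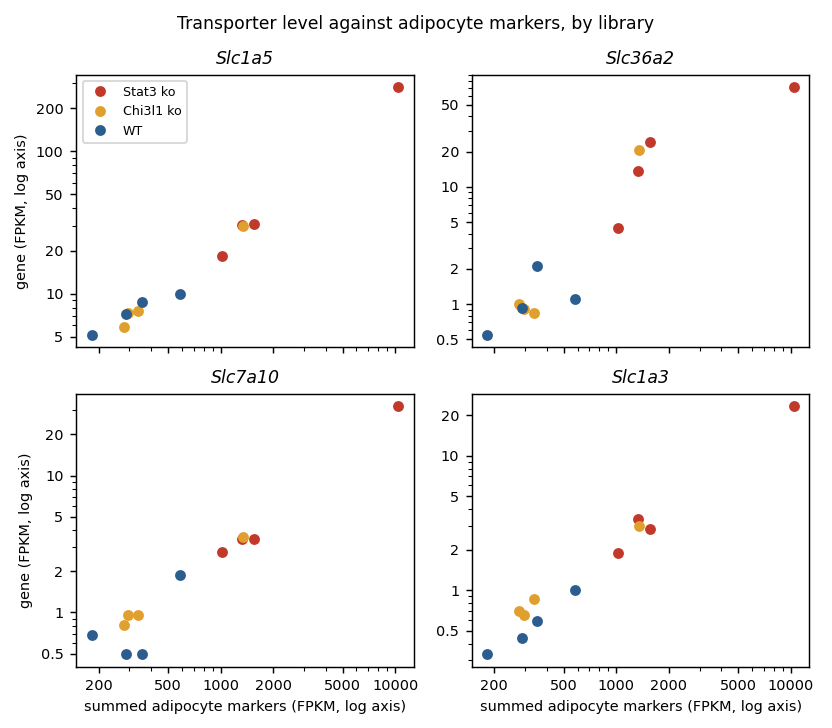
FPKM of Slc1a5, Slc36a2, Slc7a10 and Slc1a3 against the summed FPKM of 12 adipocyte markers in each of the 12 libraries, both on log axes, coloured by genotype. Stat3 ko 1 lies at the top right of every panel, at 10426 FPKM of markers, and Chi3l1 ko 2 lies among the other Stat3 ko libraries.

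Markers of milk-producing alveolar cells also moved with genotype, while luminal epithelial markers did so less clearly. The summed level of 10 markers of milk-producing alveolar cells was 367, 1189.5, 1001 and 1217 FPKM in the Stat3 ko libraries, 4763, 3522, 4083 and 3818 in the Chi3l1 ko libraries and 3995, 5252, 4257 and 3873 in the WT libraries. Of these, 6 were called lower in Stat3 ko and 0 higher. Glycam1, in the same list, was instead high in Stat3 ko 2 and 3. It stood at 0.0281, 440, 161 and 0 FPKM in the Stat3 ko libraries, 0.0940 to 9.99 in Chi3l1 ko and 0.708 to 8.38 in WT. It thus raised the alveolar sums of Stat3 ko 2 and 3, and lowered their ratios to that sum given below. The summed level of 12 luminal epithelial markers was 1241, 1379, 2649.7 and 2935 FPKM in the Stat3 ko libraries, 2903, 2151, 2744 and 2674 in the Chi3l1 ko libraries and 2846, 2337, 2538 and 3475 in the WT libraries. Stat3 ko 1 and 2 were lowest, and Stat3 ko 3 and 4 lay within the WT range. In this list 1 marker was called lower and 0 higher, beside 8.39% and 5.61% of all tested genes. Esr1 went the other way, at 1.33 to 5.01 FPKM in Stat3 ko, 0.958 to 1.72 in Chi3l1 ko and 1.01 to 1.29 in WT. Foxa1 stood at 21.7, 0.549, 5.61 and 5.04 FPKM in the Stat3 ko libraries, 0.256 to 0.544 in Chi3l1 ko and 0.118 to 1.56 in WT. Per 1000 FPKM of luminal markers, again a ratio chosen after the values were seen, Slc7a5 stood at 6.06 to 13.5 in Stat3 ko, 19.1 to 29.1 in Chi3l1 ko and 26.3 to 33.5 in WT and Slc1a1 at 0.262 to 0.705 in Stat3 ko, 1.25 to 1.52 in Chi3l1 ko and 1.21 to 1.64 in WT. For these 2 of the 8 genes that fell, the Stat3 ko and WT ranges did not overlap, and for the other 6 they did. Per 1000 FPKM of alveolar markers Slc7a5 stood at 14.1 to 35.7 in Stat3 ko, 12.8 to 20.3 in Chi3l1 ko and 14.9 to 23.6 in WT and Slc1a1 at 0.694 to 2.39 in Stat3 ko, 0.761 to 1.07 in Chi3l1 ko and 0.730 to 1.09 in WT. Both overlapped on this scale, as did Slc1a4 and Slc38a3. For the other 4 genes that fell, Slc3a2, Slc6a8, Slc38a2 and Slc38a6, the Stat3 ko ratios were all above the WT ratios, with Slc3a2 at 25.9 to 105 in Stat3 ko, 10.1 to 12.9 in Chi3l1 ko and 12.9 to 15.4 in WT.

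Other cells varied between libraries as well. T cell markers summed to 44.3 to 528 FPKM in Stat3 ko, highest in Stat3 ko 2 and 3, 27.5 to 57.9 in Chi3l1 ko and 26.4 to 57.1 in WT, with 3 of 11 tested called higher in Stat3 ko. B cell markers summed to 244, 945, 378 and 39.8 FPKM in Stat3 ko 1 to 4, 15.5 to 34.4 in Chi3l1 ko and 15.2 to 82.8 in WT, with 2 of 5 called higher. Macrophage markers summed to 1416 to 2302 FPKM in Stat3 ko, 978 to 1335 in Chi3l1 ko and 887 to 1588 in WT, with 5 of 12 called higher and 1 lower. Fibroblast markers summed to 300.3 to 1031 FPKM in Stat3 ko, 218 to 467 in Chi3l1 ko and 272 to 816 in WT, with 3 of 10 called higher. Skeletal muscle markers summed to 300.4, 10607, 51.9 and 5985 FPKM in Stat3 ko 1 to 4 and 38.4, 8875, 273 and 1060 in Chi3l1 ko 1 to 4. In WT they summed to 13.4 to 2888 FPKM, and 0 of 10 were called. Endothelial markers summed to 55.9 to 204 FPKM in Stat3 ko, highest in Stat3 ko 1, 30.1 to 61.4 in Chi3l1 ko and 36.5 to 57.6 in WT, with 1 of 10 called higher. Neutrophil markers summed to 245 to 931 FPKM in Stat3 ko, 918 to 1986 in Chi3l1 ko and 851 to 1315 in WT, with 1 of 4 tested called lower. Nearly all of this sum was Ltf (lactoferrin), at 240 to 924 FPKM in Stat3 ko, 890 to 1948 in Chi3l1 ko and 818 to 1279 in WT. Among the other markers, S100a8 stood at 1.30 to 11.1 FPKM in Stat3 ko, 23.7 to 32.1 in Chi3l1 ko and 25.4 to 31.95 in WT. Csf3r went the other way, at 2.26 to 4.24, 1.65 to 3.15 and 1.33 to 2.48 FPKM in the same order, with overlap. The sum thus follows Ltf and not the list as a whole. Basal and myoepithelial markers summed to 41.04 to 349.99 FPKM in Stat3 ko, 109 to 134 in Chi3l1 ko and 55.3 to 148 in WT, with 0 of 7 called. This list split, with Acta2 at 22.1 to 186 FPKM in Stat3 ko, 11.7 to 29.3 in Chi3l1 ko and 11.6 to 21.6 in WT. Krt5 tended the other way, at 4.16 to 37.9, 33.5 to 42.9 and 17.3 to 58.9 FPKM in the same order, with overlap. Markers of proliferating cells summed to 39.1, 92.9, 176 and 129.6 FPKM in Stat3 ko 1 to 4, 119 to 136 in Chi3l1 ko and 121 to 186 in WT, with 0 of 10 called, and Slc7a5 had the same order of libraries within Stat3 ko. Slc38a1 was highest in Stat3 ko 2 and 3, the libraries with the most T cell and B cell markers and the most Glycam1. What part any of these cells had in the transporter values was not tested.

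Chi3l1 ko was set against WT to see which of the same genes differ when Chi3l1 is lost. No member was called, by limma, edgeR or DESeq2, and over all tested genes limma and edgeR each called 0.00733% and DESeq2 0.0586%, all lower. At an unadjusted p under 0.05 there were 2 members, Slc3a2 and Slc38a7. Slc3a2, the heavy chain, had a change of −0.36 ± 0.10 (limma adjusted p = 0.9998), and its Chi3l1 ko values of 45.2 to 48.3 FPKM lay below all WT values of 52.98 to 67.6 FPKM. In the authors' deposited table its log2 fold change is −0.37 with an adjusted p of 0.0502. Slc38a7 had a change of −0.25 ± 0.11 (limma adjusted p = 0.9998). Slc7a5 stood at 52.4 to 77.7 FPKM in Chi3l1 ko and 69.9 to 91.2 in WT, which overlap, a change of −0.33 ± 0.38 (limma adjusted p = 0.9998), and −0.32 in the authors' deposited table. Groups that did not overlap were found for Slc3a2 and, in the other direction, Slc38a10, whose Chi3l1 ko values of 43.7 to 46.9 FPKM were above WT at 42.1 to 43.6, beside 2.48% of all tested genes. The median change of the 28 members was −0.06, beside 0.00 for all genes. Slc1a3, Slc1a5 and Slc36a2 were above every WT library in Chi3l1 ko 2 and within or near the WT range in the other 3 Chi3l1 ko libraries.

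Stat3 ko was also set directly against Chi3l1 ko, which tests the difference between the knockouts. Here 7 members were called, with 6 lower and 1 higher, beside 13.2% of all genes, 8% lower and 5.19% higher. With edgeR 1 member was higher and 6 lower, beside 7.25% and 6.95% of all genes (14.2% in either direction), and with DESeq2 8 were higher and 8 lower, beside 13% and 10.9% (23.9% in either direction). Slc1a1 fell by 1.29 ± 0.10 (limma adjusted p = 6.2e-05), Slc1a4 fell by 1.47 ± 0.28 (0.0087), Slc38a3 fell by 1.63 ± 0.35 (0.0153), Slc7a5 fell by 1.66 ± 0.38 (0.0186), Slc6a8 fell by 0.57 ± 0.12 (0.0153) and Slc3a2 fell by 0.47 ± 0.10 (0.0145). Of these, Slc1a1 and Slc1a4 kept the call in every alternative. Slc3a2, Slc6a8, Slc7a5 and Slc38a3 lost it in the fit of the compared groups alone and without Chi3l1 ko 1, Slc7a5 also without Chi3l1 ko 4, and Slc6a8 also without the 3 mitochondria-rich libraries. Slc36a1 rose by 0.30 ± 0.09 (limma adjusted p = 0.0445), a call that ended in 17 of 23 alternatives. For Slc1a5 and Slc36a2, whose Chi3l1 ko 2 value lay in the Stat3 ko range, the changes of 2.12 ± 0.74 and 2.47 ± 0.87 did not pass (limma adjusted p = 0.0803 and 0.0807). On leaving out 1 library at a time both passed without Chi3l1 ko 2, at 2.61 and 3.34 (limma adjusted p = 0.0420 and 0.0146), and without Stat3 ko 4, at 2.56 and 3.09 (limma adjusted p = 0.0381 and 0.0276). In the other 10 such fits the limma adjusted p was 0.0778 to 0.186 for Slc1a5 and 0.0895 to 0.198 for Slc36a2. Both also passed without the 3 mitochondria-rich libraries, at 1.64 and 2.22 (limma adjusted p = 0.0094 and 0.0130). Slc38a2, with no overlap, had a change of −0.43 ± 0.13 (limma adjusted p = 0.0571). The 4 values of the knockouts did not overlap for 9 of the 28 members, beside 17.0% of all genes. This comparison and Stat3 ko against WT share the Stat3 ko libraries.

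In the authors' deposited table for Stat3 ko against WT, 18 members are listed and 14 have an adjusted p under 0.05. Of the 12 members called here, 10 are among these 14, and the 2 that are not, Slc1a3 and Slc1a5, are not listed at all. The 18 listed members have an unadjusted p of at most 0.0442 in the authors' comparison, so the list may have been cut by p. The other 4 of the 14 are Slc43a1, given above, Slc7a2, with a log2 fold change of 1.60 (adjusted p = 0.0266) in the authors' deposited table, Slc6a2 with −1.95 (adjusted p = 0.0036) and Slc6a11 with 4.57 (adjusted p = 0.0303). Slc6a2 and Slc6a11 never exceeded 0.303 and 0.0950 FPKM and were not tested here.

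The genes around the transporters were read from 8 lists, beside 14% of all tested genes called in Stat3 ko against WT. In Chi3l1 ko against WT, 0 members of any list were called. Among 23 tested genes of the amino acid response, in which ATF4 and CHOP act when amino acids run short, 2 fell in Stat3 ko, 0 rose, and the median was −0.13. Trib3, a pseudokinase induced by ATF4 and CHOP, averaged 7.52 ± 1.80 FPKM in Stat3 ko, 20.7 ± 2.97 in Chi3l1 ko and 21.98 ± 1.66 in WT (SD, n = 4 each) and fell by 1.45 ± 0.15 (limma adjusted p = 0.00024). Cebpb, a transcription factor of the C/EBP family, averaged 114 ± 24.4 FPKM in Stat3 ko, 185 ± 22.6 in Chi3l1 ko and 203 ± 15.1 in WT and fell by 0.85 ± 0.14 (limma adjusted p = 0.0055). Trib3 and Cebpb also fell in Stat3 ko against Chi3l1 ko, where 2 list members rose, among them Psph, the last enzyme of serine synthesis, by 0.40 ± 0.10 (limma adjusted p = 0.0302).

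Of the 20 tested cytosolic aminoacyl-tRNA synthetases, which charge tRNAs with amino acids, 4 fell and 0 rose. Their median was −0.27, with 18 below 0, beside 53.1% of all tested genes below 0. Genes of a list share the same libraries, so their signs are not independent. The glutamine enzyme Qars fell by 0.58 ± 0.10, the serine enzyme Sars fell by 0.45 ± 0.10 and the asparagine enzyme Nars fell by 0.56 ± 0.15 (limma adjusted p = 0.0070, 0.0207 and 0.0362). Qars averaged 20.7 ± 2.82 FPKM in Stat3 ko, 30.1 ± 2.56 in Chi3l1 ko and 31.1 ± 1.53 in WT. Of 27 genes of amino acid sensing by mTORC1, 1 rose and 1 fell. The rise was Sesn1, a sestrin that restrains mTORC1, which averaged 11.3 ± 3.46 FPKM in Stat3 ko, 4.22 ± 1.10 in Chi3l1 ko and 4.51 ± 0.398 in WT and rose by 1.12 ± 0.19 (limma adjusted p = 0.0057), and the fall was Seh1l, a subunit of the GATOR2 and nuclear pore complexes, at −0.38 ± 0.10 (limma adjusted p = 0.0358). Among 14 amino acid and peptide transporters of other families, 2 fell and 0 rose. They were the lysosomal cystine exporter Ctns (−0.38 ± 0.11) and the peptide transporter Slc15a2 (−0.61 ± 0.17), with limma adjusted p of 0.0369 and 0.0394.

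Of 16 genes of glutamine, glutamate and aspartate metabolism, 1 rose and 2 fell. Glul, which makes glutamine, rose by 2.28 ± 0.61 (limma adjusted p = 0.0326). Glul stood at 456, 136, 85.5 and 83.6 FPKM in the Stat3 ko libraries, 22.02, 114, 22.98 and 27.2 in the Chi3l1 ko libraries, and 24.5, 45.8, 28.1 and 23.1 in the WT libraries. As with Slc1a5, Stat3 ko 1 was highest and Chi3l1 ko 2 lay in the Stat3 ko range. The falls were Asl, an enzyme of arginine synthesis, at −0.54 ± 0.14 and the asparaginase Asrgl1 at −0.78 ± 0.23 (limma adjusted p = 0.0283 and 0.0476). For branched-chain amino acid breakdown, all 15 tested genes had a change above 0, where 53.1% of all tested genes were below 0. Their median was 0.65 beside −0.02 for all genes, but 1 was called, and these signs too are not independent. That gene, Bckdha, a subunit of the branched-chain keto acid dehydrogenase, stood at 44.6, 22.4, 16.3 and 18.4 FPKM in the Stat3 ko libraries, 12.9, 20.2, 12.4 and 12.8 in the Chi3l1 ko libraries, and 10.3, 10.7, 12.04 and 13.04 in the WT libraries, and rose by 0.97 ± 0.27 (limma adjusted p = 0.0362). Stat3 ko 1 and Chi3l1 ko 2, the libraries of their genotypes with the most adipocyte markers, were also the highest for Bckdha, and the part of adipocytes in these changes was not tested. Of 13 arginine, ornithine and polyamine enzymes, 1 rose, Oat (ornithine aminotransferase), at 0.65 ± 0.19 (limma adjusted p = 0.0454). Against Chi3l1 ko, Oat rose again and Arg1 (arginase) rose by 1.30 ± 0.38 (limma adjusted p = 0.0467). Of 12 glutathione and cysteine genes, 3 fell and 0 rose. Ggt1, which cleaves extracellular glutathione, fell by 1.22 ± 0.25, the glutathione peroxidase Gpx1 fell by 0.40 ± 0.10 and the thioredoxin reductase Txnrd1 fell by 0.58 ± 0.16 (limma adjusted p = 0.0140, 0.0265 and 0.0365).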

How the data were processed

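The authors sequenced total RNA (NEBNext Ultra II libraries, per the labels' protocols) and deposited 1 table of FPKM per gene for 12 libraries and tables of their own comparisons with read counts, log2 fold changes, p-values and adjusted p-values. Per the submitters' processing notes, the tools were Trimmomatic, HTSeq, STAR, limma and edgeR and the builds mm10 and GRCm38, with no version or role, and whether counting used strand is not given in the sources used here. The deposited FPKM times gene length and a total per library gave whole counts within 0.001 read for 100% of values. Of 54472 deposited counts, 0 differed from them. This total was 0.926 times the gene counts in Stat3 ko 1 and 1.02 to 1.14 times in the other libraries. It is thus not the gene counts alone, and the FPKM of Stat3 ko 1 are higher for its counts than those of the other libraries. The deposited comparison tables also hold a normalized signal, counts divided by a size factor per library, which was not used. Spreadsheet dates had replaced 27 gene names, which were restored from identifiers.

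The 13643 genes that reached 1 FPKM in 4 or more of the 12 libraries were fitted as log2(FPKM + 1) with limma 3.58.1 (trend) in R 4.3.3, all 3 groups in 1 fit, two-sided, with Benjamini-Hochberg adjustment over all 13643. DESeq2 1.42.0 and edgeR 4.0.16, run on those counts, were alternatives, and the script was tested on simulated data. Replicates are numbered in label order. Values in every library are given for called members, both heavy chains, the highest member of each family and the 10 highest members, and up to 3 called genes per pathway list and comparison are named. The members, gene lists and motifs were chosen with earlier results of these data known. Depth was 16217143 to 22607123 counts per library. An untested member of the Slc6a family is not reported here by name.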

Additional observations from a re-analysis of the deposited data

Results flagged for a closer look

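In groups of 4 libraries, the gap between the most extreme library and its nearest neighbour was set against the range of the group, and values above Dixon's 95% limit are listed. Of 84 groups (28 members in 3 genotypes), 10 were above it. The limit is passed by chance in about 1 in 20 groups only for independent, normally distributed values. The genes here share the same libraries, so the count of 10 cannot be set against that rate. Stat3 ko 1 held 4 of the 10 and Chi3l1 ko 2 held 5. These are the libraries with the most adipocyte marker RNA of their genotypes. In Stat3 ko 1 they were Slc1a5 at 282 FPKM, Slc7a10 at 32.1, Slc1a3 at 23.2 and Slc36a4 at 4.68, all high. In Chi3l1 ko 2 they were Slc1a5 at 29.7 FPKM, Slc36a2 at 20.4, Slc7a10 at 3.58 and Slc1a3 at 2.98, all high, and Slc7a4 at 2.76, which was low. In WT 2, the WT library with the most adipocyte marker RNA at 583 FPKM, Slc7a10 was high at 1.88 FPKM. What part adipocytes had in these values was not tested.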

How the results depend on the processing

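In Stat3 ko against WT, 12 members were called (4 higher, 8 lower). This became 6 with no filter and 5 in the fit of the compared groups only. The count of rises became 0 with no filter, 2 with a mean of at least 5 FPKM, 2 with quantile normalization, 1 in the fit of the compared groups only, 7 with edgeR and 7 with DESeq2, and the count of falls became 4 in the fit of the compared groups only. In Stat3 ko against Chi3l1 ko, 7 were called (1 higher, 6 lower). This became 11 with array weights, 2 in the fit of the compared groups only, 16 with DESeq2 and 13 without the highest adipocyte-marker library of each knockout. The count of rises there became 0 with no filter, with a mean of at least 5 FPKM, with quantile normalization and in the fit of the compared groups only, 4 with array weights, 8 with DESeq2, 4 without the 3 mitochondria-rich libraries and 6 without the highest adipocyte-marker libraries, and the count of falls became 2 in the fit of the compared groups only. No filter raises the number of genes tested and the fit of compared groups uses 8 libraries, and the cause of the other shifts was not tested. Leaving out each library in turn gave 5 to 15 calls in Stat3 ko against WT, with 0 to 6 higher and 5 to 9 lower, and 2 to 13 in Stat3 ko against Chi3l1 ko, with 0 to 5 higher and 2 to 8 lower. The fewest calls against WT came without WT 1 or WT 3, at 5 each, and against Chi3l1 ko without Chi3l1 ko 1, at 2. In Chi3l1 ko against WT every alternative gave 0. No called change of a member, and no other change of a member whose log2 value is given, turned its sign. In Stat3 ko against WT the uncalled changes of Slc7a6, Slc43a3 and Slc7a1 turned sign in 7, 4 and 2 alternatives. Slc1a1, Slc3a2, Slc6a8 and Slc7a5 kept the call against WT in every alternative in which they were tested. Slc1a3 and Slc7a10 failed the filter, and so have no value, without the 3 mitochondria-rich libraries. No paired analysis was possible because the labels give the groups no shared replicate numbers. A limit is the spread of the Stat3 ko libraries, which differ in cell markers and mitochondrial share, so a member not called may still differ. The genotype and these markers moved together and cannot be told apart with 4 libraries a group.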

Other observations

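Summed over all 61 members, the transporter level was 364 ± 192 FPKM in Stat3 ko, 329 ± 28.2 in Chi3l1 ko and 351 ± 9.32 in WT (SD, n = 4 each). The Stat3 ko mean rests on Stat3 ko 1, at 653 FPKM. The other 3 Stat3 ko libraries summed to 264 to 274 FPKM (268 ± 5.24, SD, n = 3), below every Chi3l1 ko library (292 to 359) and every WT library (342 to 363). The Slc1a family summed to 310 FPKM in Stat3 ko 1, nearly all of it Slc1a5, and to 24.5 to 36.9 FPKM in the other Stat3 ko libraries, 17.6 to 44.1 in Chi3l1 ko and 17.9 to 26.2 in WT. The Slc7a family summed to 45.6 to 72.8 FPKM in Stat3 ko, 74.7 to 101 in Chi3l1 ko and 95.2 to 113 in WT. The Slc38a family summed to 68.4 to 82.4 FPKM in Stat3 ko, 95.4 to 111 in Chi3l1 ko and 99.1 to 105 in WT. For Slc7a and Slc38a the 4 Stat3 ko sums lay below every other library, and the Chi3l1 ko and WT sums overlapped. These sums were chosen after their values were seen.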
